A study of Mus musculus with 12 samples.

Results

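The genes described here encode the proteins of the mitochondrial ribosome. They were taken as the gene rows whose symbol begins with Mrpl or Mrps followed by a number, and there were 77 of them among 20981 genes. The symbols stand for 50 proteins of the large subunit, 26 proteins of the small subunit and Mrps36, a component of the ketoglutarate dehydrogenase complex that carries an older ribosomal name. Mrps30 and Mrps18a are proteins of the large subunit in spite of their symbols. The rule left out ribosomal proteins that go by other names, and 6 of those are given for comparison.

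The RNA came from testes of Mael-/- C57BL/6 mice at 3 months. These mice lack Maelstrom, a factor of the piRNA pathway, so that LINE-1 retrotransposons are active in their germ cells, and every group shares this genotype. A testis extract in 10 mM EDTA, which takes ribosomes apart, was the TOTAL group. Sucrose gradient fractions 5 to 8 of that extract, pooled, were the INPUT group. INPUT was incubated with beads carrying an antibody to ORF1p, the RNA-binding protein encoded by LINE-1 (IP), or with beads carrying none (BO, beads only). Each group held 3 libraries, which the study describes as biological replicates, and there were 12 libraries of rRNA-depleted RNA in all. BO thus gives the RNA that beads hold without the antibody. Less RNA went into the IP libraries than into those of TOTAL and INPUT, and the BO libraries were made from the volume used for IP, whatever RNA it held. No Mael+/- or wild-type tissue and no other antibody was among these libraries.

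Mitochondrial ribosomes translate the few proteins encoded by mitochondrial DNA, all of them subunits of the respiratory chain and ATP synthase. Their rRNAs are made inside the organelle, whereas all their proteins are encoded in the nucleus, translated on cytosolic ribosomes and imported. The genes are expressed in practically every cell type, and the proteins fall into those with relatives in bacteria and those found only in mitochondria. Cytosolic ribosomal protein mRNAs, by contrast, typically start with a C followed by an unbroken run of pyrimidines, the 5′ terminal oligopyrimidine (TOP) motif, through which their translation is regulated together.

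The annotated start of 68 of the 77 genes could be read from RefSeq promoters (GRCm38.p6). None of the 68 began with a TOP, counted as a C at the first transcribed base within an unbroken run of at least 5 C or T on the gene's strand. The same search found 14 of 61 cytosolic ribosomal protein genes (23.0%) and 477 of 16024 genes (2.98%). A start that is annotated a few bases off hides a TOP. When the run was allowed to begin within 5 bases on either side, 17 of the 68 (25%), 29 of the 61 (47.5%) and 3622 of all genes (22.6%) matched. The windows below hold 10 bases before the start and 15 from it, with the pyrimidine run that begins with C at the start in capitals. They are shown for the gene highest and the gene lowest in IP over TOTAL, for 2 of the mitochondrial genes with the longest run at the start, for Mrpl45, and for 2 cytosolic ribosomal protein genes with a TOP.
Mrpl3, chr9:105053258-105053282, plus strand: gcccggctgtgcttttcctccgcgg
Mrpl14, chr17:45686339-45686363, plus strand: ggagaacccctggcgcgcaggcgca
Mrpl45, chr11:97315706-97315730, plus strand: cgcgcgcccctcccctggagagcgt
Mrpl36, chr13:73330999-73331023, plus strand: tggcgtcccaCTCCactgcgcagac
Mrps18b, chr17:35916426-35916450, minus strand: cggggcgtgtCCTTggcccacccta
Rps6, chr4:86857353-86857377, minus strand: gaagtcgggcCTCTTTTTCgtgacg
Fau, chr19:6057937-6057961, plus strand: gcccccacttCTTCCTCTTTCTTga
Mrpl36 and Mrps18b reached 4 pyrimidines from the start, whereas Rps6 reached 9 and Fau 13. Neither Mrpl3 nor Mrpl45 starts with a C. The start of Mrpl3, a G, lies just before a run of 10 pyrimidines, and that of Mrpl45, a T, lies inside a run of 10.

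All 77 genes are protein coding. They lie on 17 chromosomes, with at most 10 on a single chromosome. Their longest protein-coding transcripts had a median of 1316 nt, against 2887 nt over all genes and 914 nt over 79 cytosolic ribosomal protein genes. GC content had a median of 49.7%, close to the 49.3% of all genes. Exons of a gene on the opposite strand overlapped 27 of the 77, and exons of another gene on the same strand overlapped 8. The libraries were stranded, but whether counting used strand is not given in the sources used here.

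Gene values were available only as the authors' mean of normalized counts for each group, in 3 tables that set IP beside BO, INPUT or TOTAL. They carry no value per library and no depth. The standard errors and p-values of the authors' own comparisons in the same tables were not used, so the comparisons below are ratios of means without a test. A ratio is log2 of the means after adding 1 to each, given for genes whose 2 means average at least 10, and a gene is counted as higher or lower from 2-fold on. The share of all genes past 2-fold stands beside the count for each comparison. Scaling each comparison so that the median gene has a ratio of 0 lowers every IP over BO value by 0.81 and every IP over INPUT value by 0.15, and raises INPUT over TOTAL by 0.16 and BO over INPUT by 0.56. It changes IP over TOTAL by 0.03.

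The tissue labels were checked against marker genes. The mean of Mael, each in its own table, was 0.65 in TOTAL, 0.502 in BO and 0 in INPUT and IP. The spermatocyte markers Sycp1 and Sycp3 had TOTAL means of 9433 and 5739, and 5 markers of spermatids lay between 11.7 and 39.3. In such bulk samples fewer cells of a type and less RNA per cell cannot be told apart. In the separate repeat table, large-subunit rRNA took 52.1% of the BO replicate 3 counts but 3.18% and 3.25% in BO replicates 1 and 2. The gene tables give BO only as a mean over the 3 libraries, so BO ratios without replicate 3 could not be had, and its part in them was not tested.

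All 77 mRNAs were detected in each group. On a scale set to the table with INPUT, the median gene had a mean of 559 in TOTAL, 219 in INPUT, 74.6 in BO and 259 in IP. Together the 77 genes made up 0.281% of the summed gene means in TOTAL, 0.115% in INPUT, 0.0393% in BO and 0.119% in IP. They thus took a smaller share of the gradient fractions than of the extract, and the share in IP was close to that in INPUT. In the same order of groups, the medians were 572, 224, 74.2 and 305 for the large subunit. They were 479, 204, 77.7 and 212 for the small subunit. From INPUT to IP the large-subunit share rose from 0.0765% to 0.0877%, whereas the small-subunit share fell from 0.0381% to 0.0313%.

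**Figure D1:**
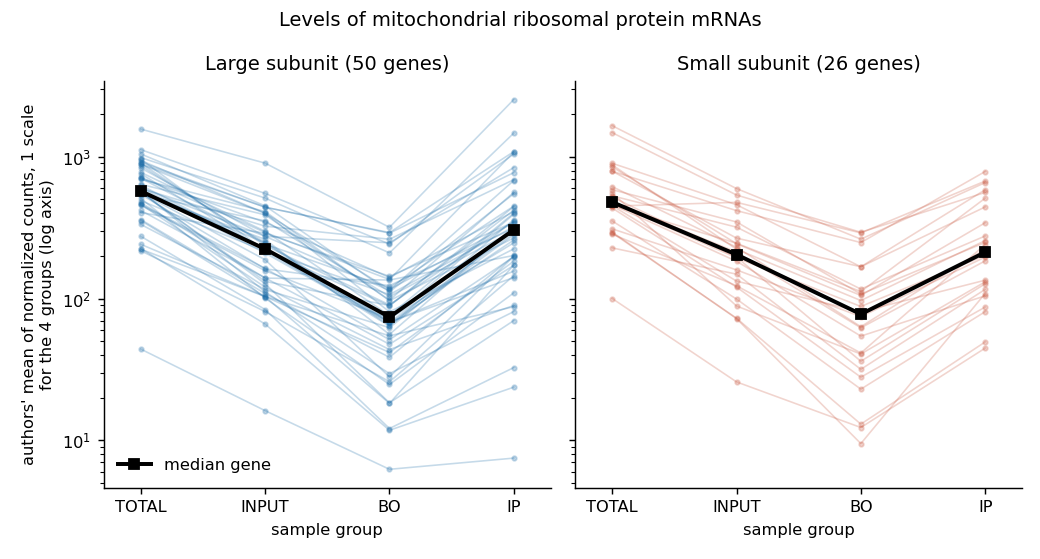
Each line is a gene and gives the authors' group mean of normalized counts (log axis) in TOTAL, INPUT, BO and IP, brought to the scale of the table with INPUT, for 50 large-subunit and 26 small-subunit genes, with the median in black. The medians were lowest in BO for both subunits, and in IP the large-subunit median was 305 against 212 for the small subunit.

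Levels were compared between genes per kilobase of the longest coding transcript. In TOTAL they ran from 47.8 per kb for Mrps36 to 1470 per kb for Mrpl33. Mrpl20 followed with 1365, Mrpl52 with 1221, Mrps23 with 1050 and Mrps6 with 1032 per kb. The lowest ribosomal proteins were Mrpl23, a protein of the exit tunnel rim, with 59.6 per kb, and Mrpl19 with 80.5 per kb. Where shorter transcripts of a gene prevail, such values are too low, and transcript use was not measured.

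The first question is whether these mRNAs passed from the extract into the fractions where LINE-1 complexes sediment after ribosomes have been taken apart. They were depleted there. INPUT was at least 2-fold below TOTAL for 62 of 77 genes, against 18.3% of all genes, and at least 2-fold above it for 0, against 2.31%. The median log2 ratio of INPUT over TOTAL was −1.41, compared with −0.16 over all genes. The sign was negative for 76 of 77 genes under each of the 3 other scalings as well. This comparison joins 2 tables, whose IP means differ by a nearly constant factor (0.996, between 0.982 and 1.02 over 14151 genes).

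The exception was Mrps27, a pentatricopeptide repeat protein of the small subunit, with means of 447 in TOTAL and 477 in INPUT (log2 ratio 0.09). The lowest ratio belonged to Mrps18c, 1 of 3 mammalian relatives of bacterial S18. Its mean was 554 in TOTAL and 88.6 in INPUT, a log2 ratio of −2.64. Next were Mrpl36 (−2.35), a very small protein with bacterial relatives, Mrpl42 (−2.33) and Mrpl52 (−2.15). The relatives of Mrps18c were less depleted, since Mrps18a in the large subunit had −1.21 and Mrps18b had −0.61. The large subunit (median −1.41, 43 of 50 lower) and the small subunit (median −1.41, 18 of 26 lower) had the same median.

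The comparison of IP with BO asks which RNAs the antibody brought down beyond the beads. Of the 75 genes past the filter on low means, 69 were at least 2-fold higher in IP, against 43.9% of all genes, and 0 were at least 2-fold lower, against 11.2%. Mrpl23 and Mrps36 did not pass the filter. The median log2 ratio was 1.76, compared with 0.81 over all genes, so that these mRNAs stood 0.95 above the median gene. With ratios centred on the median gene, 34 were at least 2-fold higher, against 18.3% of all genes, where 24.1% of all genes were at least 2-fold lower. All 75 ratios were above 0, and 72 of them stayed above the median gene.

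Mrps28, whose protein is related to bacterial S1, had the highest ratio, with a mean of 7.24 in BO and 82.9 in IP (10.2-fold). This rank rests on a low BO mean, since with 10 added to each mean Mrps28 had a log2 ratio of 2.43, below the 2.94 of Mrpl3. Mrpl21 had 13.9 in BO and 131 in IP (8.88-fold). Mrpl3, of the core of the large subunit, had 243 in BO and 1933 in IP (7.94-fold). Mrpl45, which lies at the exit tunnel and holds the ribosome to the inner membrane, had 104 in BO and 823 in IP (7.84-fold). Mrps28 and Mrpl21 thus rank high with low BO means, whereas Mrpl3 and Mrpl45 do so with high IP means. At the other end stood Mrpl50 (103 in BO and 154 in IP, log2 ratio 0.57), Mrpl22 (0.67), Mrps15 (0.73) and Mrps24 (0.93). Around the 2-fold line, Mrpl41 lay just inside with 1.01 and Mrpl14 just outside with 0.94. The large subunit had 46 of 49 genes at least 2-fold higher with a median of 1.92, and the small subunit 23 of 26 with a median of 1.63.

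BO itself held less of these mRNAs than INPUT. BO was at least 2-fold below INPUT for 61 of 76 genes, against 34.4% of all genes, and at least 2-fold above it for 0, against 9.32%. The median log2 ratio was −1.45, compared with −0.56 over all genes. After centring on the median gene, 34 were at least 2-fold lower, with 18.3% of all genes lower and 19.8% higher. The lowest ratios were those of Mrps28 (−2.77), Mrpl52 (−2.71), Mrpl54 (−2.69) and Mrpl34 (−2.67). Mrpl50 (−0.04), Mrpl1 (−0.15), Mrpl44 (−0.30), which has a fold like that of RNase III, and Mrpl32 (−0.39) had the ratios nearest to 0. Centred on the median gene, the ratios of Mrpl50, Mrpl1, Mrpl44 and Mrpl32 were 0.52, 0.42, 0.26 and 0.18. With 10 added to each mean, Mrps28 had −1.90 and Mrpl54 was lowest with −2.29.

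**Figure D2:**
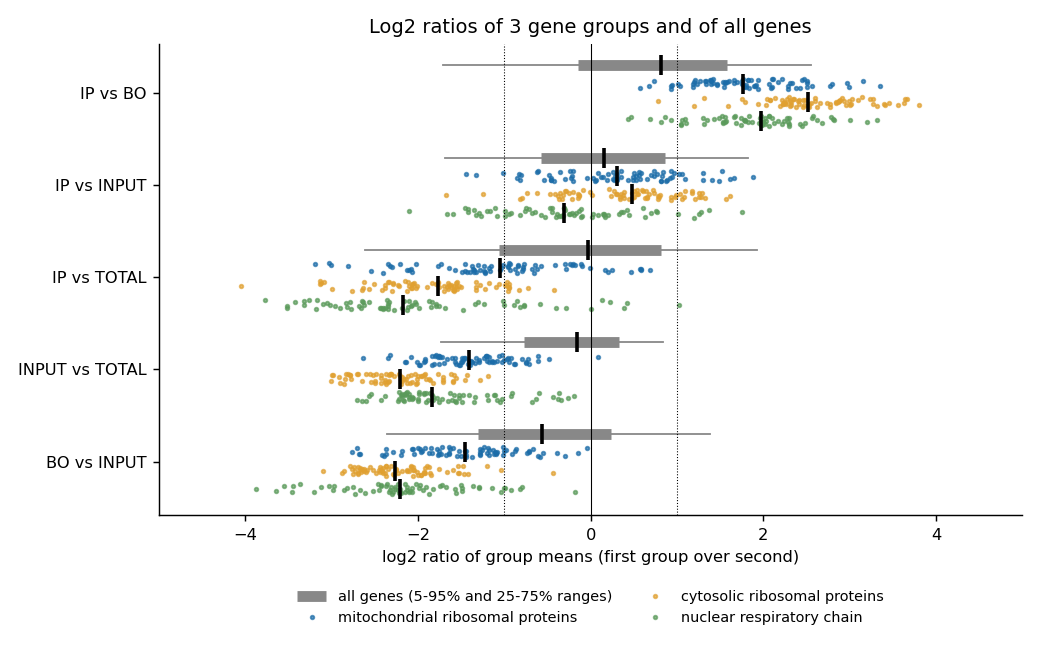
Points are the log2 ratios of group means of single genes past the filter for mitochondrial ribosomal proteins, cytosolic ribosomal proteins and nuclear-encoded respiratory chain proteins in 5 comparisons, with grey bars for all genes, black ticks at medians and dotted lines at 2-fold. The median of the mitochondrial ribosomal protein genes lies to the right of that of all genes in IP over BO (1.76 against 0.81). It lies to the left of that of all genes in IP over TOTAL (−1.05 against −0.03) and INPUT over TOTAL (−1.41 against −0.16).

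The comparison of IP with INPUT asks whether the antibody drew these mRNAs beyond their share of the material it was given. Mostly they stayed within 2-fold. Of 77 genes, 11 were at least 2-fold higher in IP, against 20.5% of all genes, and 3 were at least 2-fold lower, against 14.6%. The median log2 ratio was 0.30, compared with 0.15 over all genes. Ratios were above 0 for 54 genes as deposited and for 48 after centring on the median gene, but for 30 when means were scaled to their sum and for 37 when scaled to their upper quartile, so the direction of the group as a whole depends on the scaling. With means scaled to their sum, 3 of the 77 were at least 2-fold higher and 11 lower, against 9.11% and 28.1% of all genes.

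The 11 genes were Mrpl45, Mrpl35, Mrpl1, Mrpl9, Mrpl3, Mrpl47, Mrpl13, Mrpl39, Mrpl44, Mrps31 and Mrpl43, 10 of them in the large subunit. That was 20% of the 50 large-subunit genes, near the 20.5% of all genes, and the small subunit had 3.85% of 26. Mrpl45 had a mean of 293 in INPUT and 1079 in IP (3.68-fold). Mrpl35 had 132 in INPUT and 420 in IP (3.16-fold). Mrpl1, the protein of the mobile L1 stalk, had 275 in INPUT and 840 in IP (3.05-fold). Mrpl9 had 512 in INPUT and 1469 in IP (2.87-fold), and Mrpl3 had 902 in INPUT and 2535 in IP (2.81-fold). All 11 were also at least 2-fold above BO and within 2-fold of TOTAL. Of all genes, 16.7% were at least 2-fold above both BO and INPUT. With ratios centred on the median gene, added after the data had been seen, 7 of 75 were, against 9.17%. Mrpl43 (1.02) and Mrps10 (0.96) lay on either side of the line.

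The 3 genes at least 2-fold below INPUT all encode large-subunit proteins with bacterial relatives. Mrpl14, at the face between the subunits, had 66.1 in INPUT and 23.7 in IP, 2.71-fold lower. Mrpl34 had 83.7 in INPUT and 32.6 in IP, 2.52-fold lower. Mrpl23 had 16.2 in INPUT and 7.50 in IP, 2.02-fold lower. These are among the lowest IP means of the group, and none of the 3 was past a minimum mean of 100. The median was 0.48 for the large subunit and 0.10 for the small subunit.

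IP was at least 2-fold below TOTAL for 41 of 77 genes, against 26.2% of all genes, and at least 2-fold above it for 0, against 20.4%. The median log2 ratio was −1.05, compared with −0.03 over all genes, and 69 genes had a negative ratio. Under the other scalings between 68 and 73 did. Together with the comparison with BO, 33 of 75 genes were at least 2-fold above BO and at least 2-fold below TOTAL, against 7.45% of all genes. With ratios centred on the median gene, a setting added here after the data had been seen, these were 11 of 75, against 2.34%. As deposited, these 33 mRNAs were thus recovered with the antibody beyond plain beads and were still less abundant there than in the extract.

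The 8 genes with positive ratios were Mrpl3, Mrpl45, Mrps27, Mrpl9, Mrpl1, Mrpl39, Mrpl44 and Mrps31. Mrpl3 had 1562 in TOTAL and 2521 in IP (1.61-fold). Mrpl45 had 716 in TOTAL and 1073 in IP (log2 ratio 0.58). Mrps27 had 447 in TOTAL and 671 in IP (log2 ratio 0.58), and it was the gene that had not been depleted in INPUT. Lowest were Mrpl14, with 224 in TOTAL and 23.6 in IP (9.14-fold lower), Mrpl34, with 274 and 32.5 (8.19-fold lower), Mrpl52, with 565 and 69.6 (8.02-fold lower), and Mrpl36, with 570 and 80.5 (7.01-fold lower). Mrps18a (−1.02) and Mrps18b (−0.96) lay on either side of the 2-fold line. The small subunit had 17 of 26 genes at least 2-fold lower with a median of −1.32, and the large subunit 23 of 50 with a median of −0.94. Among subgroups as listed, the lowest median was −1.45, over 16 small-subunit proteins classed with bacterial relatives. The highest was −0.86, over 20 large-subunit proteins classed as mitochondrial only. The classes of mitochondrial-only proteins hold Mrps18a and Mrps18b, although both are related to bacterial S18.

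Some cell type markers differed between TOTAL and IP too. All 4 spermatocyte markers were at least 2-fold higher in IP, their summed mean being 18399 in TOTAL and 119518 in IP, and none of them was at 0. All 4 Leydig cell markers were at least 2-fold lower, with 64125 in TOTAL and 12870 in IP. The 5 spermatid markers summed to 116 and 3.04, with Prm2 at 0 in IP. Of 4 Sertoli cell markers 2 were at least 2-fold lower, with sums of 7416 and 3612, and none of 3 spermatogonia markers passed 2-fold, with sums of 2758 and 2182. INPUT means were below TOTAL means for all 4 Leydig cell markers and all 5 spermatid markers, as for Star (14852 in TOTAL, 7670 in INPUT). The same held for Sycp3, Hormad1 and the Sertoli cell markers except Amh. INPUT means of Sycp1, Spo11, Amh and the 3 spermatogonia markers were above those of TOTAL. Mitochondrial ribosomal protein genes are expressed by all of these cells. IP was made from fractions of the same extract as TOTAL, and the part of the cells of origin in the ratios to TOTAL was not tested.

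**Figure D3:**
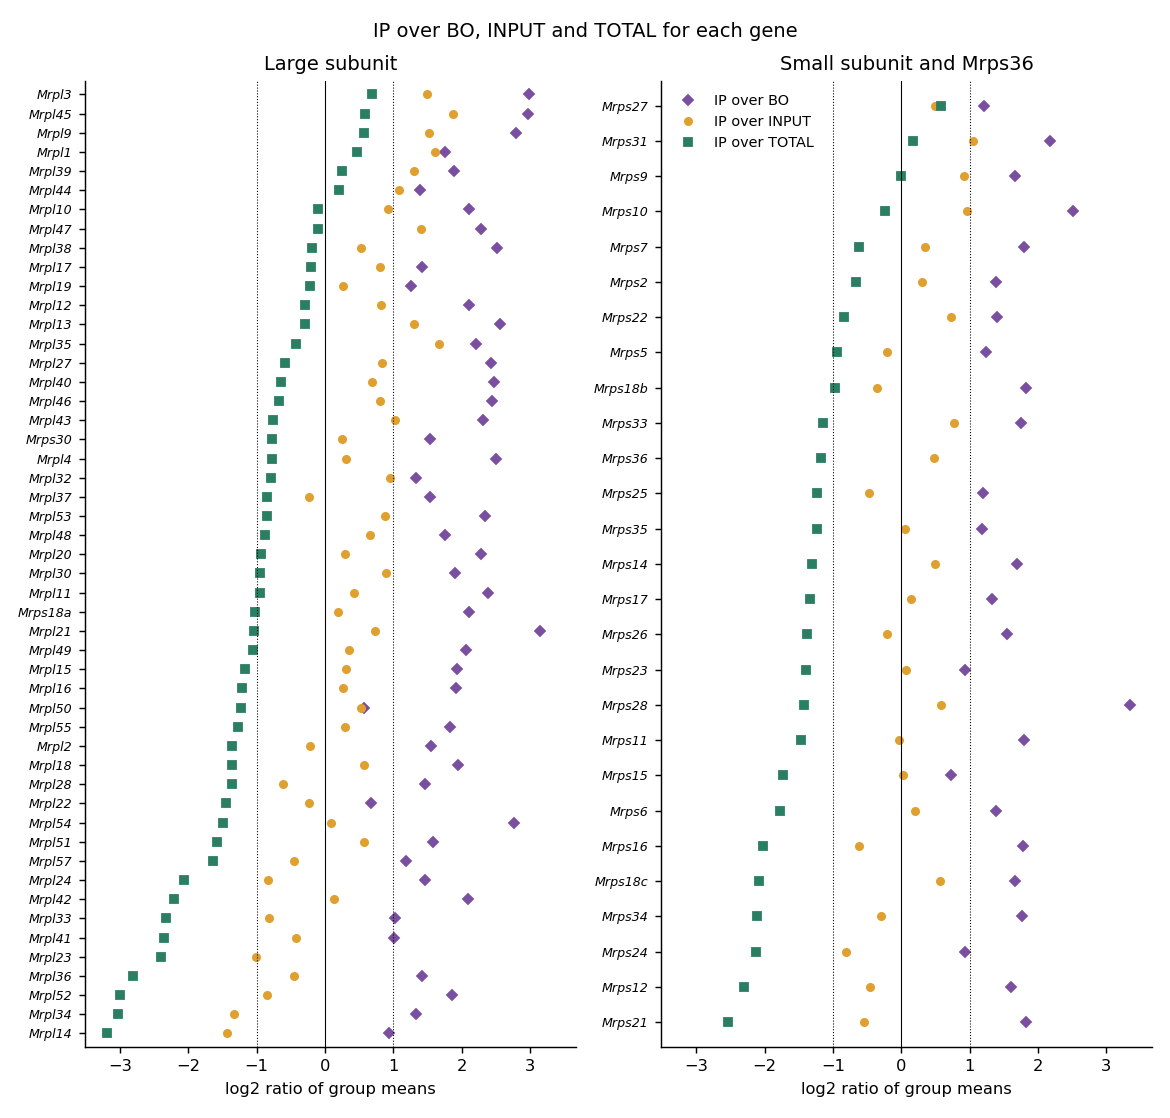
For every gene, log2 ratios of IP over TOTAL (green squares), INPUT (yellow circles) and BO (purple diamonds), ordered by IP over TOTAL within the large subunit (left) and the small subunit with Mrps36 (right), with dotted lines at 2-fold. The ratio to BO is the highest for each of the 75 genes that have one, the ratio to TOTAL is the lowest for each gene except Mrps27, and Mrpl3 (0.69) and Mrpl14 (−3.19) are the ends of the order by TOTAL.

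Several members have parts of the ribosome that are well known. Mrpl10, Mrpl11 and Mrpl12 belong to the stalk that recruits translation factors. Their IP over BO log2 ratios were 2.11, 2.38 and 2.10, and their IP over TOTAL ratios were −0.10, −0.96 and −0.29. The stalk mRNAs thus lay close together above BO, and all 3 lay above the median of the group in IP over TOTAL. Mrps12, of the decoding centre, had 433 in TOTAL, 121 in INPUT and 86.9 in IP, and its IP over TOTAL ratio of −2.30 was far below them. Mrps18a, Mrps18b and Mrps18c had IP over BO ratios of 2.10, 1.83 and 1.66 and IP over TOTAL ratios of −1.02, −0.96 and −2.08, the last of these belonging to the gene most depleted in INPUT. Mrps30 had 1.54 over BO and −0.78 over TOTAL. Mrps36, the protein that is not in the ribosome, had means of 33.6 in TOTAL, 10.0 in INPUT, 14.4 in IP and 5.17 in BO on the scale of the table with INPUT, with an IP over TOTAL ratio of −1.18. Leaving it out changed no median or count by more than 1.5 times.

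The ratios to TOTAL differed with the annotated length of the transcript. By the longest coding transcript, a measure added after the data had been seen, the shortest were 26 genes of 463 to 1056 nt. Their median IP over TOTAL ratio was −1.92, and 23 of them were at least 2-fold lower, against 26.2% of all genes. In the middle 25 genes (1068 to 1764 nt) the median was −0.78, and in the 26 longest (1849 to 7300 nt) it was −0.84. INPUT was at least 2-fold below TOTAL for 26 of the 26 shortest, against 18.3% of all genes, with a median of −1.71. The medians of the middle and longest groups were −1.23 and −1.23. By the longest transcript of any kind, the IP over TOTAL medians of the 26 shortest, 25 middle and 26 longest genes were −1.46, −0.66 and −0.91, and 24, 17 and 21 of them were at least 2-fold lower in INPUT than in TOTAL. By both measures the shortest genes had the lowest medians, and in IP over TOTAL the longest lay below the middle. None of the 26 shortest by either measure had an IP over TOTAL ratio above 0.

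Across the 77 genes, Spearman's rho of the ratio on the longest transcript was 0.39 for IP over TOTAL, 0.34 for INPUT over TOTAL and 0.25 for IP over INPUT. On the longest coding transcript it was 0.53, 0.43 and 0.37. Over 75 genes IP over BO had a rho of −0.05 on the longest transcript, whereas over 13553 genes of all kinds it was −0.37. For INPUT over TOTAL the rho over 14522 genes of all kinds was 0.64, and for IP over TOTAL it was 0.42 over 14567, close to that of the 77 genes. For IP over INPUT it was 0.06 over 14309. GC content went with BO over INPUT (rho −0.53 over 76 genes) and with IP over INPUT (−0.36 over 77 genes), as it did over genes of all kinds, with −0.48 and −0.27. These are descriptions across genes, which come from the same libraries, share an annotation and are not independent replicates.

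**Figure D4:**
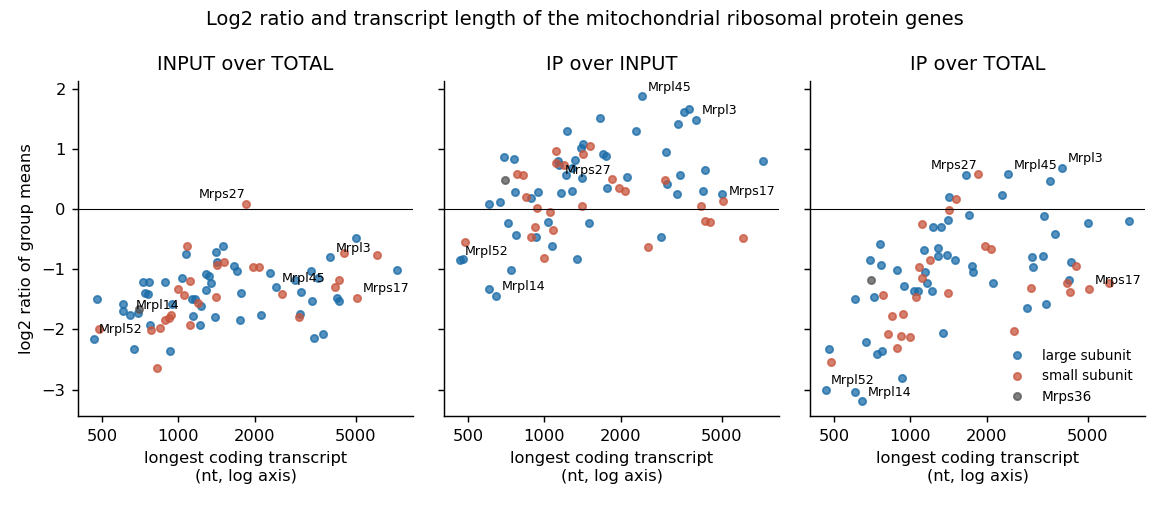
Log2 ratio of group means against the length of the longest coding transcript (nt, log axis) for INPUT over TOTAL, IP over INPUT and IP over TOTAL, 1 point a gene, by subunit. The lowest points in IP over TOTAL, among them Mrpl52 and Mrpl14 (−3.19), belong to short mRNAs, other short mRNAs lie higher, and Mrpl3 (0.69) lies highest.

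The cytosolic ribosomal protein genes and the nuclear genes of the respiratory chain were set beside the mitochondrial ribosomal protein genes. Both are groups of short mRNAs, and the second serves the same organelle. The median longest coding transcript was 914 nt in the first and 936.5 nt in the second. Of 75 cytosolic ribosomal protein genes, all 75 were at least 2-fold lower in INPUT than in TOTAL, with a median of −2.21, and in IP over TOTAL 65 were lower, with a median of −1.76. Over BO they were higher, with 73 of 74 genes past 2-fold and a median of 2.52. Rps6, shown above with its TOP, had 2392 in TOTAL and 987 in IP. Of 72 respiratory chain genes, 61 were at least 2-fold lower in INPUT than in TOTAL (median −1.83) and 58 lower in IP than in TOTAL (median −2.18). In IP over INPUT the median of the respiratory chain genes was −0.31, that of the mitochondrial ribosomal proteins 0.30 and that of the cytosolic ribosomal proteins 0.47, with 14 of 75 at least 2-fold higher. In IP over TOTAL the mitochondrial ribosomal proteins thus had the median nearest to 0 of the 3 groups. Differences between the groups could not be tested on means.

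Other genes of mitochondrial translation had medians nearer to 0 or above it in the ratios to TOTAL. The 20 genes for mitochondrial aminoacyl-tRNA synthesis had a median IP over TOTAL ratio of 0.59, with 1 gene at least 2-fold higher and 1 lower. The 14 translation factors had −0.08, with 3 higher and 1 lower, and the 23 ribosome assembly factors had 0.16, with 4 higher and 5 lower. Over BO the medians of the 3 lists were 1.54, 1.29 and 1.30. The median longest coding transcript was 3282, 2605.5 and 1821 nt in these lists, each longer than the 1316 nt of the ribosomal proteins.

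The 6 ribosomal proteins with other symbols are Dap3, Chchd1, Aurkaip1, Ptcd3, Gadd45gip1 and Ict1. Their median ratios, 1.98 over BO, 0.27 over INPUT and −1.38 over TOTAL, were near those of the 77 genes. Ptcd3, a pentatricopeptide repeat protein of the small subunit, had 1340 in TOTAL, 1304 in INPUT and 2723 in IP, a log2 ratio of IP over TOTAL of 1.02. Gadd45gip1, of the large subunit, had 743 in TOTAL and 123 in IP (−2.59).

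Where another gene overlapped, reads could not be assigned with certainty, so the ratios were also taken over the 45 genes without an overlapping gene. Their medians were 1.76 for IP over BO, 0.29 for IP over INPUT, −1.18 for IP over TOTAL and −1.41 for INPUT over TOTAL. IP was at least 2-fold above BO for 39 of 43 of them, against 43.9% of all genes. It was at least 2-fold below TOTAL for 26 of 45, against 26.2%. A named pseudogene is annotated for 3 of the 77 genes.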

How the data were processed

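Gene expression in the 4 groups (3 libraries each) was taken from the deposited files. Per the labels, STAR 2.6.0c aligned reads to mm10, and the authors ran DESeq2 1.24.0 on genes and repeat loci together for IP against each other group. The gene annotation is not given in the sources used here. The deposited signal is the mean of normalized counts of a group per gene. The tables also hold the authors' log2 fold change, standard error, statistic and p-values, which were not used. Group levels are given as means without values per library, so the depth behind a gene is unknown, and no test was run on them. The repeat file holds a normalized signal per library that the authors made, used here only for shares of rRNA.

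Ratios were log2 of means plus 1, over genes with a mean of the 2 groups of at least 10. Calls were at 2-fold. INPUT over TOTAL and BO over INPUT were set through the IP means of 2 tables. Rows naming no gene (4 per table) were left out. They held 37.9% of the BO, 30.5% of the INPUT, 38.6% of the TOTAL and 22.1% of the IP sum. Gene symbols matched GENCODE for 20708 of 20981 genes, which gave lengths, GC content and overlaps. Named genes were those at the ends of each comparison, next to the 2-fold line, at the ends of the TOTAL levels, or with a stated role, and any others were chosen after their values had been seen. Members and lists were chosen with earlier results of these data known. The members' medians and counts in each comparison were recomputed with a pseudocount of 0.1 or 10, without the filter, with a minimum mean of 100, and under 3 other scalings, single named genes with the pseudocounts and scalings, and the correlations with other length measures. Steps were tested on simulated data. Python 3.11.15 with pandas 2.3.3, numpy 2.4.6, scipy 1.17.1 and matplotlib 3.10.9 was used.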

Additional observations from a re-analysis of the deposited data

How the results depend on the processing

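No paired analysis was possible because the gene tables give only group means, and for the same reason no replicate could be left out. Over the medians, counts, correlations and motif counts, 117 alternative values stayed within 1.5 times of the value given (0.1 for a correlation) and kept its sign. The 19 named here did not, 3 of them by a change of sign, and no ratio past 2-fold changed sign. After centring on the median gene, 34 genes were at least 2-fold higher in IP than in BO (median 0.95), against 18.3% of all genes. With means scaled to the upper quartile they numbered 44 (median 1.16), against 23.9%. For IP over INPUT, means scaled to their sum gave a median of −0.23. There 3 were higher and 11 lower, against 9.11% and 28.1% of all genes. Scaling to the upper quartile gave a median of −0.046, with 6 higher and 7 lower, against 12.1% and 22.7% of all genes. A minimum mean of 100 gave 0 lower. For BO over INPUT, 34 were lower after centring, against 18.3% of all genes. Also after centring, 11 were both above BO and below TOTAL, against 2.34%, and 7 were above both BO and INPUT, against 9.17%. On the longest protein-coding transcript, an alternative chosen after seeing the data, rho was 0.53 for IP over TOTAL and 0.37 for IP over INPUT. For IP over BO, rho was 0.015 on the median transcript length and −0.16 with a minimum mean of 100. A TOP was counted in 17 genes when searched within 5 bases of the start. For single named genes, 390 ratios stayed within 1.5 times and kept their sign and 75 did not, among them 31 of 93 under centring, 29 of 93 under scaling to the upper quartile, 9 under scaling to the sum and 6 with a pseudocount of 10. The cause of these shifts was not tested beyond the construction of each alternative. Values of genes with low means, such as Mrpl23 and Mrps36, are the least certain, and no spread between libraries was taken into account for any gene. Subunits, length groups, other gene lists, markers and gene pairs were not recomputed under these settings.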

Other observations

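Some mitochondrial ribosomal protein genes start back to back with another gene, so that a pair can be compared whose starts lie almost side by side. This was looked at after the ratios had been seen. Of the 68 genes with an annotated start, 22 had the start of another listed gene upstream on the opposite strand within 500 bases (32.4%), against 1449 of 15017 genes (9.65%). Mrpl46 and Mrps11 form a pair of their own on chromosome 7, with starts 42 bases apart, and 20 genes had a partner outside the group. INPUT over TOTAL was lower for the ribosomal protein than for its partner in 16 of the 20 pairs, with medians of −1.47 and −0.04. IP over TOTAL was also lower in 16 of 20, with medians of −1.04 and 0.04, whereas IP over BO was lower in 8 of 20, with medians of 1.63 and 1.60. Exons of the partner overlapped those of Mrpl14, Mrpl18, Mrpl21, Mrpl27, Mrpl47, Mrps7 and Mrps26 on the opposite strand. In these pairs reads could not be assigned with certainty, and the pairs were not compared without them.

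The widest gap in IP over TOTAL was between Mrps18c and Helq, a DNA helicase of germ cell DNA repair, with starts 159 bases apart and ratios of −2.08 and 2.44. Mrps12 and Sars2, the mitochondrial seryl-tRNA synthetase, lie 147 bases apart and had −2.30 and −0.61. The order was the other way round for Mrpl49 and Fau, which encodes a cytosolic ribosomal protein. Their starts lie 192 bases apart on chromosome 19, and the IP over TOTAL ratios were −1.05 and −2.35. It was also the other way round for Mrpl47 and Ndufb5, a complex I subunit (−0.11 and −1.79), for Mrpl32 and Psma2, a proteasome subunit (−0.80 and −1.58), and for Mrps27 and Ptcd2 (0.58 and 0.09).
The starts of Mrpl49 and Fau differ in the run of pyrimidines, shown in capitals as before.
Mrpl49, chr19:6057741-6057765, minus strand: cgcatatgacactcagttgaggcgc
Fau, chr19:6057937-6057961, plus strand: gcccccacttCTTCCTCTTTCTTga
In 12 of the 18 pairs with both lengths the ribosomal protein gene had the shorter coding transcript, and the medians over all lengths were 1627.5 nt for the ribosomal proteins and 2481 nt for the partners. In the 4 pairs with the reversed order the ribosomal protein gene had the longer transcript. It was also longer in Mrpl30 and Mitd1 (1757 and 1231 nt) and in Mrpl57 and Ska3 (2877 and 2260 nt). Those pairs kept the usual order, with IP over TOTAL ratios of −0.95 and −0.26 and of −1.64 and 1.07. Whether length, cell type or annotation accounts for the gaps was not tested.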
